A study of Mus musculus with 15 samples.

Results

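The data compared RAW 264.7 macrophages, a cell line of transformed mouse macrophages, that had received plasma extracellular vesicles (EVs) collected 7 days after whole-body irradiation (WBIR) of the donor mice with 9 Gy with the same cells that had received EVs collected 3 days after 9 Gy. The genes described are those with a mean raw count of at least 20 in the day 3 samples and in the day 7 samples, which took in 153 of the 561 genes on the nCounter Mouse Immunology panel. The donors of the EVs were young adult female C57BL/6J mice, and the cells of every group were given LPS, a bacterial cell wall component that activates macrophages, together with the EVs for 24 hours. Both 9 Gy groups held 3 samples. The same 15-sample series held macrophages given EVs from sham mice (n = 3) and from mice 3 or 7 days after 2 Gy (n = 3 each), and no sample without EVs or without LPS was analysed here. The comparison asks whether the time between irradiation and EV collection changed what the EVs of a high dose did to the LPS response.

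Macrophages meet LPS through Toll-like receptor 4, which starts 2 programs. One runs through MyD88 and NF-kB to inflammatory cytokines such as Il1b and chemokines such as Ccl2 and Ccl3. The other runs through TRIF, TBK1 and IRF3 to interferon beta (Ifnb1), which acts back on the cells and raises interferon response genes such as Cxcl10 and Ifit2. Plasma EVs are small membrane vesicles that carry proteins and RNA between tissues, and those released after irradiation have been studied as carriers of bystander effects.

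The titles place 3 samples at day 3, but the dose and day field of 2 of them, replicates 1 and 2, gives day 7. They were kept at day 3 as titled. With both left out, or both placed at day 7, the day 3 group holds replicate 3 alone. These are the label alternatives, and a pair of values given for them below is the log2 change with both samples left out and then with both placed at day 7. They are printed beside the gene changes at 9 Gy given here that they turned or moved by over 1.5 times. The samples were described as run in triplicate and nothing says that they came from separate cultures, so that p-values measure the spread between these samples, which may be technical.

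Depth differed between the days before any gene was compared. Total raw counts were 43176, 60411 and 87899 at day 3 and 461265, 453178 and 617963 at day 7, 8.26-fold higher at day 7 (exact permutation test, two-sided, p = 0.1, the smallest p that 3 samples against 3 allow). The geometric mean of the 14 housekeeping genes moved with it, from 69.2 to 124 raw counts at day 3 and from 801 to 872 at day 7, 8.71-fold higher at day 7 (exact permutation test, two-sided, p = 0.1). Under the label alternatives these folds were 5.75 and 2.30 for the total and 6.72 and 2.69 for the housekeeping mean, with 1 sample at day 3 and no test. The total per housekeeping level was 0.948-fold at day 7 (exact permutation test, two-sided, p = 0.6). Levels are therefore given as scaled counts, the raw count times 504 over the housekeeping geometric mean of the sample. One raw count was worth between 4.06 and 7.28 scaled counts at day 3 and between 0.578 and 0.629 at day 7, so that the day 3 values of low genes are coarse. The shallow day 3 samples set which genes could be described: of the 408 genes outside the 153, 276 were under a mean of 20 at both days, 132 at day 3 only and 0 at day 7 only.

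**Figure D1:**
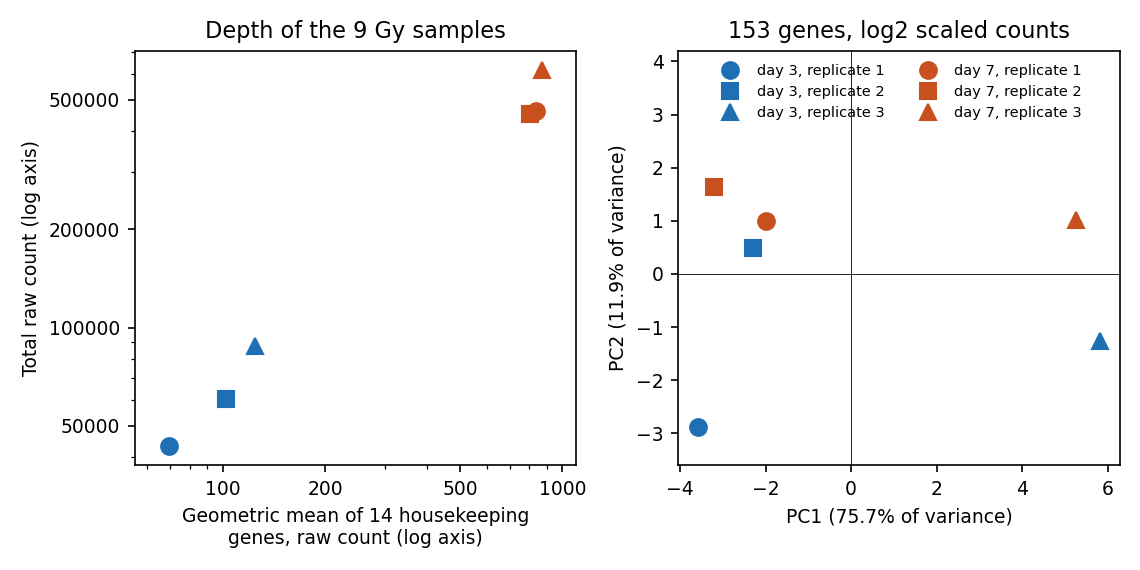
Left, total raw count against the geometric mean of the 14 housekeeping genes (both log axes) for the 6 samples given 9 Gy EVs; right, the first 2 principal components of the log2 scaled counts of the 153 genes. The 3 day 7 samples lie above the 3 day 3 samples in depth, and PC1 separates both samples numbered 3 from the other 4 without separating the days.

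The cells carried the macrophage genes that their label implies. Of the 12 genes on the panel from a list of macrophage identity genes, 9 were among the 153, including Tyrobp, an adaptor of activating receptors, Emr1, which encodes F4/80, and Cd14, the co-receptor for LPS. Tyrobp held scaled counts of 3195, 3432 and 3362 at day 3 and 3176, 3553 and 3252 at day 7. The lists of T cell genes (29 on the panel), NK and cytotoxic genes (16) and neutrophil, mast cell and platelet genes (14) gave 0 of the 153, the list of B cell genes (15) gave 1, the signaling adaptor Blnk, and the median raw count over 60 genes of lymphocyte lists was 1 in each day 3 sample and between 8 and 10 in the day 7 samples.

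With the samples placed as titled, macrophages given EVs of day 7 and of day 3 were not shown to differ in any of the 153 genes after scaling: 0 of 269 genes tested (0%) and thus 0 of the 153 passed after Benjamini-Hochberg adjustment at 0.05 (edgeR, quasi-likelihood; lowest adjusted p = 0.986). DESeq2 also called 0. At an unadjusted p under 0.05 edgeR gave 6 of the 269 (2.23%), of which 2 were among the 153, and DESeq2 on the same housekeeping size factors gave 9. The log2 changes of the 153 genes ran from -0.96 to 0.62 with a median of -0.03 (-0.02 over all genes tested), and their quartiles were -0.17 and 0.12. Which side of 0 a gene fell on depended on the scaling: 64 genes were above 0 and 89 below here, and 105 above and 48 below under TMM scaling, where the median was 0.10 (0.11 over all genes tested). Small changes are read against that median. Day 7 and day 3 means differed by less than 1.5-fold in 150 genes by the fitted change, and 0 genes reached a log2 change of 1, both with the samples as titled. Across the 153 genes the log2 mean levels of both days correlated with r = 0.99, a description over genes that share 6 samples and probes, and genes are not independent replicates.

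A missed threshold does not show equal levels, so the 95% interval of each change was used to ask how large a difference the data leave room for. In 130 of the 153 genes (85.0%) the whole interval lay between a log2 change of -1 and 1, a 2-fold change either way, against 187 of 269 tested (69.5%). For the other 23 a 2-fold difference lay inside the interval. The median standard error was 0.20 and ran from 0.09 (Gapdh) to 0.79 (Il1b). The 130 fell to 98 with replicates 1 and 2 of day 3 left out and to 92 with both placed at day 7, and in both cases 0 genes passed the adjusted threshold (lowest adjusted p = 0.175 and 0.156, edgeR). In both the day 3 arm was 1 sample, replicate 3, which is assumed to vary like the other groups, so these counts of 0 lend little weight.

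The closeness of the days depended on the titles. Under the label alternatives 124 and 118 of the 153 genes, in place of 150, differed by less than 1.5-fold, and 55 and 68 turned direction. At an unadjusted p under 0.05 edgeR gave 16 of the 269 genes (5.95%) with the samples left out, 13 of them among the 153, and 21 (7.81%) with them placed at day 7, 18 of them among the 153. The number past a log2 change of 1 was 10 and then 12, in place of 0. The counts within 1.5-fold, turned and past 1 are of the 153 genes, and their shares over all genes tested are not given. Higher at day 7 were Irf1 (2.17 and 2.28), Ifit2 (1.30 and 1.63), Ifnb1 (1.19 and 1.48), Icam1 (1.14 and 1.18), Plau (1.57 and 1.498) and, past 1 only with the samples placed at day 7, Cxcl10 (0.97 and 1.24). Lower at day 7 were Fcgr2b (-1.78 and -1.76), Il1rn (-1.53 and -1.77), Il1b (-1.16 and -1.49), Pdgfb (-1.08 and -1.05), Ptgs2 (-1.03 and -1.12) and, past 1 only with the samples placed at day 7, Ccl2 (-0.74 and -1.02). None of these genes passed the adjusted threshold. Of the 10 and the 12 genes, 8 and 10 are among the 13 genes described further on in which replicate 3 stood apart from replicates 1 and 2 at both days. Under the label alternatives replicate 3 of day 3 is set against a group that holds replicates 1 and 2. These changes therefore cannot be told apart from differences between replicate numbers. Replicate 3 of day 3 and replicate 3 of day 7 differed by a median absolute log2 difference of 0.18 over the 153 genes.

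**Figure D2:**
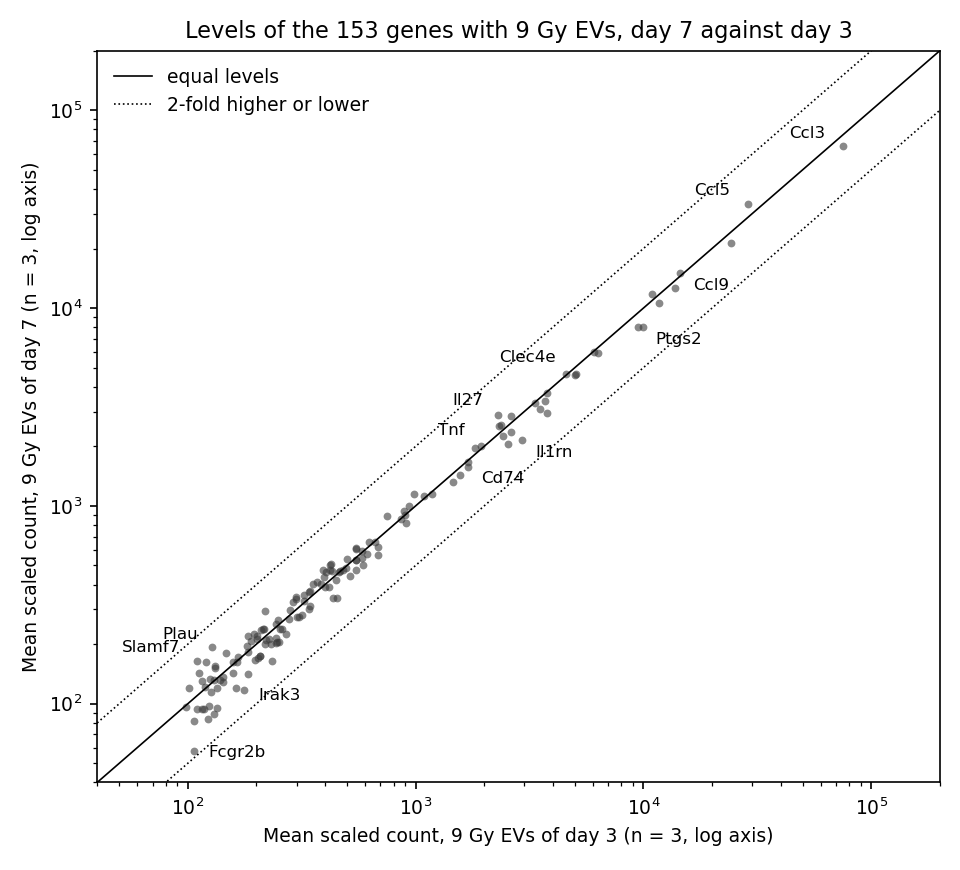
Mean scaled count of each of the 153 genes with EVs of day 7 (n = 3) against EVs of day 3 (n = 3), both on log axes, with lines for equal levels and for a 2-fold difference. All 153 points lie around the line of equal levels over a range from below 100 to the 66049 scaled counts of Ccl3 at day 7.

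**Figure D3:**
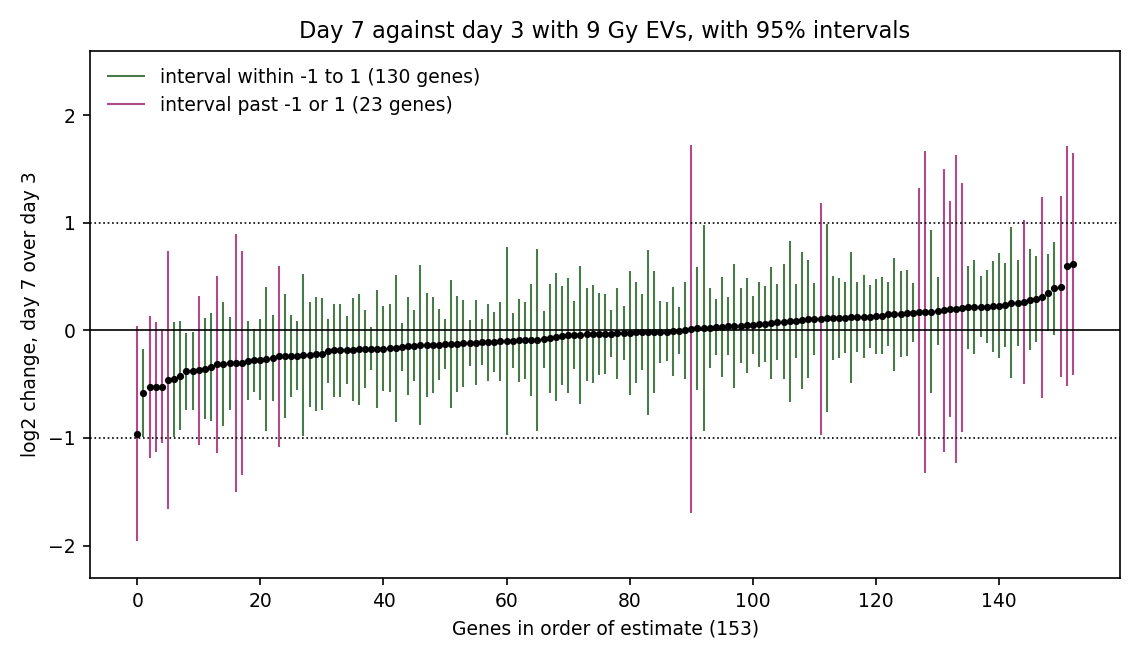
The log2 change from day 3 to day 7 (points) with its 95% interval (lines) for the 153 genes in order of the estimate. The interval of 130 genes lies within -1 to 1, and 23 genes, colored apart, reach past it.

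The CC chemokines showed no called difference between the days. Ccl3, a chemoattractant for monocytes and neutrophils, held scaled counts of 77274, 65737 and 82885 at day 3 and 63107, 55093 and 79948 at day 7, and the days overlapped (log2 change -0.19 ± 0.14 SE; label alternatives -0.33 and -0.28). Ccl5, a chemoattractant for T cells and monocytes, held 24734, 28094 and 33914 at day 3 and 28808, 32115 and 40092 at day 7, again with overlap (0.22 ± 0.13 SE). Ccl4, a related chemokine, was at 5001, 3879 and 2433 at day 3 and at 3464, 3089 and 2266 at day 7 (-0.36 ± 0.22 SE). Both turned under the label alternatives, to 0.27 and 0.54 for Ccl4 and to -0.01 and -0.14 for Ccl5. Of 16 CC chemokines on the panel 7 were among the 153 and 0 were called, with a median log2 change of 0.11, which became -0.33 and -0.28 under the label alternatives. The sham EV samples held 124136 to 164489 scaled counts of Ccl3 and 137384 to 146233 of Ccl5. Their total count per housekeeping level was 1250 to 1367, against 553 to 709 in the 9 Gy samples, so that a level set against sham depends on the scale. As CPM, which scales each sample to its total count, Ccl3 overlapped, at 193290 to 245877 with 9 Gy EVs and 197031 to 238743 with sham EVs, while Ccl5 was lower with 9 Gy EVs on both scales, at 78701 to 112673 against 212245 to 224708 CPM.

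With the samples as titled, the genes of antigen presentation among the 153 stayed within 2-fold between the days by their intervals, as did 85.0% of the 153. They were 9 of the 13 class I and peptide loading genes on the panel and 2 of the 10 class II genes. Genes of these lists outside the 153 are not covered by this. Cd74, the invariant chain that guides MHC class II molecules, was at 1783, 1750 and 1577 scaled counts at day 3 and at 1489, 1692 and 1556 at day 7 (log2 change -0.11, 95% interval -0.32 to 0.10), and the groups overlapped. H2-K1, an MHC class I heavy chain, was at 517, 477 and 491 and at 453, 514 and 490 (-0.02, interval -0.28 to 0.23; label alternatives -0.01 and -0.004). B2m, the light chain that class I molecules need, was at 11202, 11707 and 12320 and at 9209, 10747 and 11762 (-0.15, interval -0.37 to 0.07). For Cd74 the label alternatives gave 0.00 and 0.07. The sham EV samples held 7058 to 7356 scaled counts of Cd74, and both 9 Gy groups sat under them, also as CPM (4356 to 5936 against 10676 to 11297). All 9 class I and peptide loading genes among the 153 had intervals within 2-fold, with changes from -0.17 (Psmd7, a proteasome subunit) to 0.29 (Psmb10, a subunit of the immunoproteasome; label alternatives 0.19 and 0.09). Under the label alternatives the changes of these 9 genes ran from -0.24 to 0.52 and from -0.26 to 0.50, the highest in both that of Tap1, a peptide transporter.

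The interferon list was the longest, with 21 of its 31 panel genes among the 153 and 0 called. Its median log2 change was -0.10 against -0.02 over all genes tested, with 6 genes above 0 and 15 below, which became 14 above and 7 below under TMM scaling with a list median of 0.06. With the samples as titled, the furthest changes in it belonged to kinases of the pathway. Tbk1, which phosphorylates IRF3, was at 167, 152 and 73.0 scaled counts at day 3 and at 83.9, 101 and 80.4 at day 7 (-0.53 ± 0.28 SE). Tyk2, a kinase on the interferon receptor, was at 153, 113 and 101 at day 3 and at 74.3, 105 and 71.1 at day 7 (-0.52 ± 0.25 SE). In both genes replicate 3 of day 3 fell among or below the day 7 samples, and the label alternatives gave 0.27 and 0.54 for Tbk1 and -0.28 and -0.10 for Tyk2. Under them the kinases were no longer the furthest of the list: Irf1 was, at 2.17 and 2.28, the change of Ifnb1 turned from -0.30 to 1.19 and 1.48, and that of Irgm1, an interferon-induced GTPase, turned from -0.37 to 0.65 and 0.93. The list then had 10 genes above 0 and 11 below in both, with medians of -0.01 and -0.02. Outside this list, the interferon-induced chemokine Cxcl11 was at 3851, 3830 and 3666 and at 3653, 3745 and 3772 (-0.02, interval -0.60 to 0.55; label alternatives 0.02 and 0.04). As titled, the interval of 15 of the 21 genes of the interferon list lay within 2-fold.

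The 2 of the 153 genes with an unadjusted p under 0.05 were Irak3, on the Toll-like receptor list, and Batf, on the differentiation list, and both were lower at day 7. Irak3 encodes IRAK-M, a brake on Toll-like receptor signaling, and was at 189, 128 and 211 scaled counts at day 3 and at 117, 95.6 and 140 at day 7. Its log2 change was -0.58 ± 0.19 SE (edgeR unadjusted p = 0.0085, adjusted p = 0.986), it was lower in each of the 3 same-numbered pairs, and the groups still overlapped. The label alternatives gave -0.84 and -0.72. Batf, an AP-1 family transcription factor, was at 175, 143 and 231 at day 3 and at 141, 148 and 136 at day 7 (-0.38 ± 0.17 SE, edgeR unadjusted p = 0.042, adjusted p = 0.986). For Batf the change became -0.12 without the samples numbered 3, and -0.71 and -0.66 under the label alternatives. The direction at this threshold depended on the scaling. Of the 6 genes tested that passed it, 1 was higher at day 7, against 12 of 14 under TMM scaling (5.2% of the 269), 7 of 9 under total counts (3.35%) and 11 of 13 with the 5 housekeeping genes of at least 100 counts (4.83%). Among the 153 these were 6 higher and 1 lower, 3 higher and 1 lower, and 5 higher and 1 lower, the lower gene being Irak3 each time (-0.45, -0.50 and -0.47), while Batf was at -0.25, -0.27 and -0.27 and did not pass. With only the 2 day groups in the fit and no block, 0 of the 153 passed. There the edgeR unadjusted p was 0.0547 for Irak3 and 0.119 for Batf. Of the 6 Toll-like receptor and signaling genes among the 153, 3 were above 0 and 3 below. NF-kB subunits and inhibitors (6 genes) had a median of -0.12 (0.03 under TMM scaling), from -0.31 (Rela, the p65 subunit) to 0.24 (Nfkb2, which encodes p100 and p52). Under the label alternatives that median turned to 0.13 and 0.20, with -0.16 and -0.06 for Rela and 0.39 and 0.34 for Nfkb2.

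The list of the common gamma chain, the IL-15 system and related cytokine receptors had 23 genes on the panel. Of these 10 were tested and 4 were among the 153 (Il2rg, Il15, Il13ra1 and Crlf2). All 4 were above 0 as titled, under TMM scaling as well, which does not speak for the other genes of the list. Their median log2 change was 0.25, the highest of the 18 lists with 3 or more genes. Under the label alternatives 3 and then 2 of the 4 were above 0, the median was 0.12 and 0.02, and the highest median of the 18 lists was that of the TNF family, at 0.33 and 0.42. Il2rg, the common gamma chain itself, was at 116, 98.3 and 122 scaled counts at day 3 and at 119, 153 and 157 at day 7 (0.35 ± 0.17 SE, edgeR adjusted p = 0.986; label alternatives 0.24 and 0.13). Il15, a cytokine that sustains NK and memory T cells, was at 138, 157 and 97.3 and at 161, 211 and 96.0 (0.27 ± 0.35 SE; label alternatives 0.68 and 0.66). Both genes overlapped between the days, and 0 of the 4 were called. The change of Crlf2, the receptor of TSLP, was 0.22 and became -0.03 and -0.11, and that of Il13ra1, a receptor chain for IL-13, was 0.23 and became 0.00 and -0.10. The medians of the 18 lists ran from -0.12 to 0.25 as titled, and from -0.62 (IL-1 family and inflammasome, in both) to 0.33 and 0.42 under the label alternatives. No gene of any list was called.

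**Figure D4:**
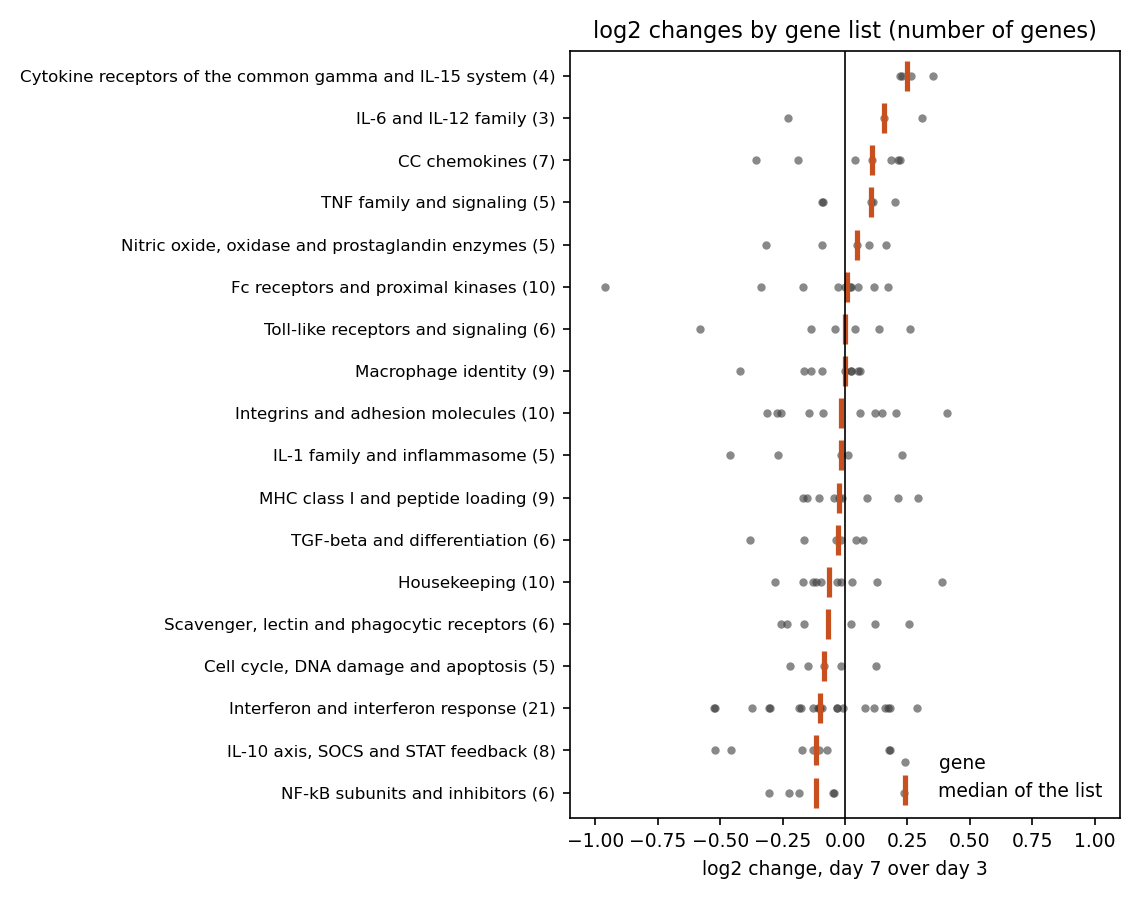
log2 change from day 3 to day 7 of each gene (points) in the 18 lists with 3 or more of the 153 genes, samples placed as titled, with the median of each list (vertical marks) and the number of genes in parentheses. Medians lie between -0.12 and 0.25 and points of nearly every list fall on both sides of 0, apart from the 4 genes of the common gamma and IL-15 list. TMM scaling would shift the points to the right, to a median of 0.11 over all genes tested.

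Tnf, Il27 and Cdkn1a overlapped between the days. Tnf, the early inflammatory cytokine, was at 2213, 2149 and 1131 scaled counts at day 3 and at 2206, 2141 and 1541 at day 7 (log2 change 0.10 ± 0.26 SE; label alternatives 0.79 and 0.86). Il27, a cytokine subunit that pairs with Ebi3, was at 1776, 2532 and 2620 and at 2420, 2738 and 3437 (0.31 ± 0.44 SE; label alternatives 0.13 and -0.02). Cdkn1a, the p53 target that halts the cell cycle, was at 2271, 2630 and 2101 and at 2286, 3001 and 2341 (0.12 ± 0.15 SE; label alternatives 0.28 and 0.26). Il6 fell outside the 153, with raw counts of 4, 9 and 13 at day 3 and 68, 61 and 101 at day 7, and its scaled counts of 29.1 to 52.7 and 38.4 to 58.4 lay far under the 2163 to 4146 of sham EV samples, as they did as CPM.

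With the samples as titled, the 3 day 7 samples lay wholly above or below the 3 day 3 samples in 5 of the 153 genes (3.27%), 1 above and 4 below, against 17 of the 269 tested (6.32%; 2.6% above and 3.72% below). Slamf7, a receptor of activated macrophages, was above, at 116, 98.3 and 114 scaled counts at day 3 and 117, 164 and 215 at day 7 (log2 change 0.60; label alternatives 0.54 and 0.39). Csf1r, the receptor that maintains macrophages, was below, at 204, 148 and 138 at day 3 and 124, 132 and 102 at day 7 (log2 change -0.42; label alternatives -0.21 and -0.05). Abcf1, Eef1g and Gapdh were the other genes below. Eef1g and Gapdh are among the housekeeping genes that set the scale, and the log2 change of Eef1g was -0.12 here, 0.02 under TMM scaling, and -0.11 and -0.06 under the label alternatives. Slamf7 and Plau (0.62 ± 0.48 SE, the highest change as titled) were named after their values were seen. The genes nearest the limit of 20 raw counts at day 3 were Ccrl2, Npc1 and Crlf2 just inside, with log2 changes of -0.18, -0.06 and 0.22, and Irak1, Tnfaip3 and Alas1 just outside, with 0.09, 0.07 and 0.35. The label alternatives turned Ccrl2 to 0.36 and 0.47, Crlf2 as given above and Irak1 to -0.004 and -0.04. They moved Npc1 to -0.56 and -0.64, Tnfaip3 to 0.36 and 0.38 and Alas1 to 0.55 and 0.49.

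Whether the day mattered differently at the 2 doses was tested as the interaction of day and dose, and 0 of 269 genes (0%) passed (edgeR, lowest adjusted p = 0.993). At an unadjusted p under 0.05 there were 4 of 269 (1.49%), of which 0 were among the 153. Under the label alternatives 0 genes passed (lowest adjusted p = 0.705 and 0.405, edgeR), and there were 11 (4.09%) and 13 (4.83%) at an unadjusted p under 0.05, of which 8 and 10 were among the 153. For Irak3, with the samples as titled, the day difference was -0.58 at 9 Gy and -0.04 at 2 Gy, and the difference between them was -0.54 ± 0.25 SE (edgeR unadjusted p = 0.0527). Irak3 is shown for its small p in the day difference at 9 Gy, which the interaction contains, so this value is not separate support.

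Replicate 3 stood apart from the other replicates at both days. PC1 held 75.7% of the variance of the 153 genes and placed replicate 3 of day 3 at 5.82 and replicate 3 of day 7 at 5.27, with the other 4 samples between -3.58 and -1.99. This pattern was noticed in the data and is a description with no test. The median absolute log2 difference between a sample numbered 3 and one not numbered 3 was 0.31 to 0.45 within a day and 0.33 to 0.45 across days, while samples of the same number on different days differed by 0.16 to 0.23. Replicates 1 and 2 differed from each other by about as much, at 0.19 to 0.22 within a day and 0.15 to 0.24 across days, so that by this measure replicate 3 alone stood apart. If the field that gives day 7 holds for replicates 1 and 2 of day 3, replicate 3 of day 3 has no other day 3 sample to stand apart from, and the pattern at day 3 cannot be told apart from a difference between the days. Replicate 3 of day 3 differed by 0.18 from replicate 3 of day 7, and by 0.33 and 0.35 from replicates 1 and 2 of day 7. What sets the samples numbered 3 apart was not tested. Replicate 3 was the highest sample at both days in 59 genes (38.6%), against 30.1% of all genes tested, and the lowest at both days in 39 (25.5%), against 21.2%. Replicate 1 was the lowest at both days nearly as often, in 37 genes (24.2%) against 19.3%, so that the count of lowest samples does not set replicate 3 apart; replicate 1 was the highest at both days in 8.

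In 8 of the 153 genes replicate 3 was at least 2-fold above the geometric mean of replicates 1 and 2 at both days. Il1b, the pyrogenic cytokine released by inflammasomes, was at 65.5, 59.0 and 479 scaled counts at day 3 and at 80.3, 61.0 and 499 at day 7, on raw counts of 9, 12 and 118 at day 3. Il1rn, the secreted antagonist of the IL-1 receptor, was at 1347, 1273 and 6213 at day 3 and at 1348, 1121 and 3982 at day 7. Ptgs2, the inducible cyclooxygenase of prostaglandin synthesis, was at 7315, 6259 and 16363 and at 6299, 4078 and 13676. In all 3 genes replicate 3 was the high sample at both days, and the first 2 replicates of both days lay below both samples numbered 3. In Ptgs2 these lower samples spread from 4078 to 7315. The other 5 were Ccl2 and Ccl7, chemokines for monocytes, Fcgr2b, the inhibitory Fc receptor, Tnfrsf1b, a TNF receptor, and Cfp, the complement factor properdin. For Il1b the replicate 3 ratio was 7.70 at day 3 and 7.13 at day 7, and for the 8 genes it ran from 2.08 to 7.70 at day 3 and from 2.04 to 7.13 at day 7.

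In 5 genes replicate 3 was at most 0.5 of the other replicates at both days, and 3 of these, Ifnb1, Irf1 and Ifit2, are on the interferon list. That list holds 21 of the 153 genes, and its genes went both ways. Replicate 3 was the lowest sample at both days in 9 of the 21 and the highest in 7, against 39 and 59 of the 153. Ifnb1, interferon beta, was at 670, 477 and 150 scaled counts at day 3 and at 436, 447 and 145 at day 7. Cxcl10, the interferon-induced chemokine for CXCR3, was at 13808, 10635 and 4100 at day 3 and at 9838, 10573 and 3724 at day 7. Irf1, a transcription factor of the interferon response, was at 524, 565 and 97.3 and at 464, 725 and 122. In each gene the low sample was replicate 3 at both days. Ifit2, an antiviral effector, was at 835 and 779 in the samples numbered 3 and at 2351 to 4033 in the others. Icam1, an adhesion molecule induced by NF-kB, was at 182 and 179 against 428 to 590.

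**Figure D5:**
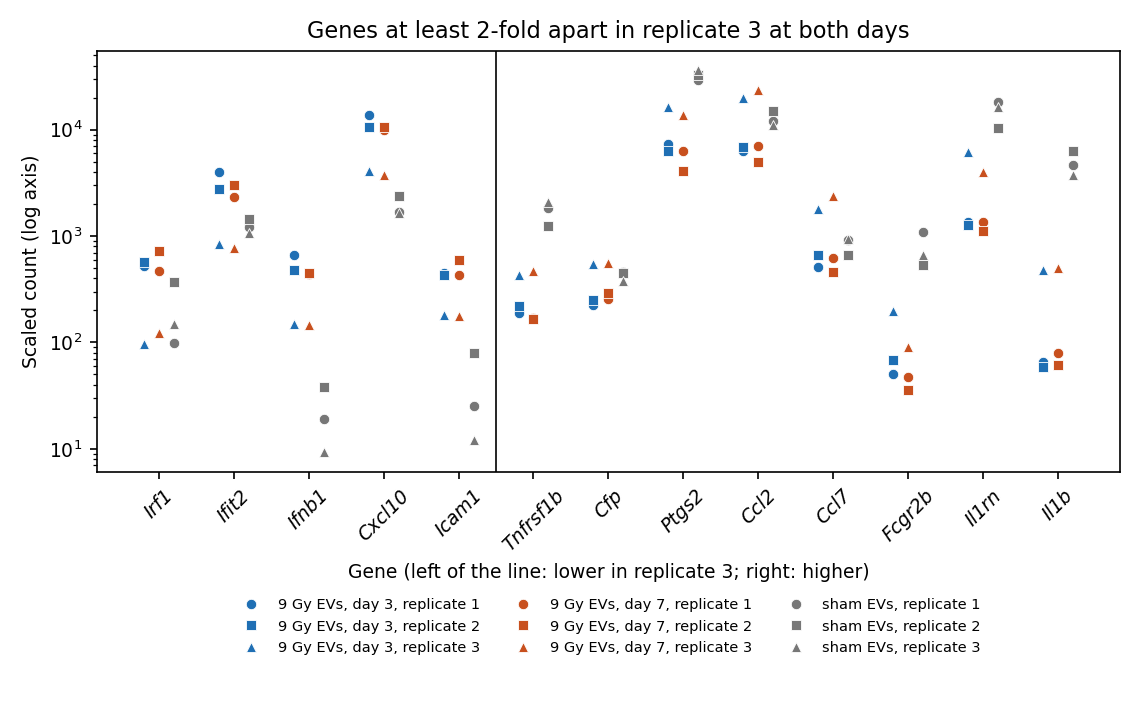
Scaled counts (log axis) of the 13 genes in which replicate 3 was at least 2-fold apart from the other replicates at both days, for EVs of 9 Gy day 3, of 9 Gy day 7 and of sham mice (symbols: replicate 1, 2 and 3). At both days the triangle of replicate 3 lies below the other replicates in 5 genes (Irf1 to Icam1) and above them in 8 (Tnfrsf1b to Il1b).

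On the housekeeping scale, the samples numbered 3 lay on the sham EV side of the other replicates at both days in all 13 genes. As CPM this held in 10, and not in Ccl2, Ccl7 and Cfp. Il1b was at 3734 to 6311 scaled counts with sham EVs and Ifnb1 at 9.25 to 37.8, both beyond the samples numbered 3. In 4 genes, Ccl2, Ccl7, Cfp and Ifit2, the samples numbered 3 lay past every sham EV sample on the housekeeping scale. For Ccl2 they were at 19700 and 23406 scaled counts against 11011 to 15023 with sham EVs. As CPM they lay above every sham EV sample in Ccl2, Ccl7 and Cfp, and further from sham than the other replicates did in Ccl7. There every 9 Gy sample was above sham, at 1609 CPM or more against 1465 or less. In 135 of the 153 genes replicates 1 and 2 of both days lay on one side of the sham mean, and in 79 of these (58.5%) replicate 3 lay toward or past it at both days, against 112 of 219 (51.1%) over all genes tested. As CPM these shares were 82 of 137 (59.9%) and 126 of 225 (56.0%). The total count per housekeeping level moved with this pattern, at 707 and 709 in the samples numbered 3 and 553 to 624 in the other 4, with 1250 to 1367 in the sham EV samples, and its part in it was not tested.

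Promoters are shown for interferon beta, for an abundant interferon-induced chemokine (Cxcl10) and for Il1b, which was the furthest apart of the higher genes; they were chosen for what the genes do and after their values were seen, and Irf1 and Ifit2 split the samples more than Cxcl10. The RefSeq tables (GRCm38.p6) held a promoter for 117 of the 153 genes, for all 5 genes lower in replicate 3 and for 6 of the 8 higher ones. For this, 2 motifs were searched on both strands in the 250 bases before the annotated start: GAAANNGAA, letters shared by many interferon response elements, and GGGANNTTC, part of one form of the NF-kB site. Capitals mark matches.
Cxcl10 (chr5:92348890-92349139, minus strand): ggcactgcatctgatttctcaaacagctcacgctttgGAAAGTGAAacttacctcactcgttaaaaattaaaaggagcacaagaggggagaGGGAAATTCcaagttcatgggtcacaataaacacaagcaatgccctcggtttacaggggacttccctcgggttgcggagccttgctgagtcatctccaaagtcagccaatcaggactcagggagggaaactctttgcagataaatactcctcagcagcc
Ifnb1 (chr4:88522795-88523044, minus strand): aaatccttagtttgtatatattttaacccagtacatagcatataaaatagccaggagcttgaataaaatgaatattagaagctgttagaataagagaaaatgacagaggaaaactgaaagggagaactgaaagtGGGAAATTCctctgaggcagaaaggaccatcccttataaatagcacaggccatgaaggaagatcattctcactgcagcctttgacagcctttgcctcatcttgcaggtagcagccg
Il1b (chr2:129371140-129371389, minus strand): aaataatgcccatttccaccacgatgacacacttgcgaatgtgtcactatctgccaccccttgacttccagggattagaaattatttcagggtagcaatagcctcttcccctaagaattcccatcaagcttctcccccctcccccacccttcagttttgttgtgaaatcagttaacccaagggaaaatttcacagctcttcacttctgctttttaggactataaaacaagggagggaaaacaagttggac
The Cxcl10 promoter held 1 match of each motif, at 213 to 205 and at 159 to 151 bases before the start, which do not overlap. The Ifnb1 promoter held 1 match of GGGANNTTC at 116 to 108 bases before the start, and the Il1b window held neither. Over all 32851 promoters in the tables GAAANNGAA was found in 7.13% and GGGANNTTC in 3.23%, and over the 117 genes, any promoter of a gene counted, in 13 (11.1%) and in 11 (9.40%). GAAANNGAA stood in 1 of the 5 genes lower in replicate 3 (Cxcl10) and in 1 of the 6 higher ones (Tnfrsf1b). GGGANNTTC stood in 3 of the 5 genes lower in replicate 3 (Cxcl10, Ifit2 and Ifnb1, not Irf1 or Icam1) and in 0 of the 6 higher ones with a promoter. A match describes these letters in this window and not a bound site.

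With the replicate number as a block and only the 2 day groups in the fit, edgeR still called 0 of 269 genes (lowest adjusted p = 0.0949), and the count at an unadjusted p under 0.05 rose from 6 to 25 of 269 (9.29%), with 16 of the 153 (10.5%), 5 higher and 11 lower at day 7. Pairs 1 and 2 use the day 3 samples whose field gives day 7, so that if the field holds, pair 3 alone compares the days. The lowest p belonged to Ptgs2, which was lower at day 7 in 3 of 3 pairs (log2 change -0.36 ± 0.09 SE, edgeR adjusted p = 0.0949). Without the block its change was -0.32, and -1.03 and -1.12 under the label alternatives. Fcgr2b was also lower in 3 of 3 pairs (-0.89 ± 0.24 SE, edgeR adjusted p = 0.189), from 51.0, 68.8 and 199 scaled counts at day 3 to 47.1, 35.9 and 90.2 at day 7. Without the block it was -0.96, and -1.78 and -1.76 under the label alternatives. In replicate 1 of day 3 a raw count was worth 7.28 scaled counts, more than the gap between 51.0 and 47.1. The direction of pair 1 is therefore not resolved for Fcgr2b. This gene also reached the day 3 mean of 20 raw counts only through replicate 3. Ccl3 and Ccl4 were lower in 3 of 3 pairs and Ccl5 higher in 3 of 3 (edgeR adjusted p = 0.189 for each). Over the 153 genes all 3 pairs were above 0 in 19 and below 0 in 36, against 13.4% and 18.2% of all genes tested. The fit with the block and these pair counts used the housekeeping scale only. As the side of 0 depends on the scaling, the larger number of lower genes here is not read as a result.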

How the data were processed

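RNA of RAW 264.7 macrophages was measured on the nanoString nCounter Mouse Immunology panel (561 genes) in 15 samples of 5 groups (n = 3 each). The authors deposited raw counts per gene, with values listed at no less than 1, and state that nSolver was used to normalize, so those normalized values and the control probes were not used here. Groups came from sample titles. The number of EVs given differs between the labels and the paper and is not stated here. The members and gene lists were chosen with earlier results of these data known.

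Library scale was set by the geometric mean of 14 housekeeping genes, and counts were fitted with edgeR 4.0.16 (limma 3.58.1, R 4.3.3; quasi-likelihood, all 5 groups, no covariates). Tests covered the 269 genes whose mean over the 15 samples reached 20, with Benjamini-Hochberg adjustment and a threshold of 0.05. Intervals (95%) used the Wald standard error and the degrees of freedom of the fit. These were 13.6 in the main fit and 22.9 in the fit of the 2 day groups with the replicate block. The latter exceeds the number of samples in that fit, because the fit borrows its spread across genes. The scripts were tested on simulated data. Alternatives were DESeq2 1.42.0, other scalings and filters, left-out samples, the conflicting day labels and the replicate block. Levels set beside sham EV samples were also taken as CPM from the deposited counts, a choice made after seeing the data.

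Named genes were members with the smallest p up to 20, genes the study names for 9 Gy, the 10 with the highest level, up to 4 per list with 3 or more members, the housekeeping genes, and the 3 on either side of the count limit. Other genes are named as chosen after their values were seen, and the genes of the replicate 3 pattern were chosen in the same way. Same-numbered samples of both days deviated together in every pair (correlation 0.330 to 0.717 over 269 genes at 9 Gy and 0.365 to 0.779 at 2 Gy), so the numbers were taken to pair the samples; the pairing comes from the data, as no label says what a number shares. Replicates 1 and 2 are not told apart by it: over the 153 genes replicate 1 of day 3 correlated with replicate 1 of day 7 at 0.713 and with replicate 2 at 0.715, replicate 2 of day 3 with replicate 2 at 0.655 and with replicate 1 at 0.521, and replicate 3 with replicate 3 at 0.900. Deviations were taken from the mean of the 3 samples of a day. The correlations of the 3 pairs are therefore not separate results, and replicate 3 bears on all of them. No 2 of the 6 samples agreed within counting error (lowest chi-square per degree of freedom 2.25), so each was counted once. Promoter sequences are RefSeq's, on GRCm38.p6.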

Additional observations from a re-analysis of the deposited data

How the results depend on the processing

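The depth of the day 3 samples, between 43176 and 87899 counts, limits the low genes: 132 genes fell under a mean of 20 counts there alone, and 24, 5 and 3 of the 153 genes were under 20 in replicates 1, 2 and 3. The count of 0 called genes held in each alternative except the one that set counts under 20 to 20, which gave 87 called genes for day 7 against day 3 (0 of them higher) and 73 for the interaction with dose. That setting raises shallow day 3 counts before they are scaled, and under it Il6 gave a log2 change of -1.19 and Tbp of -1.37. Leaving out 1 sample at a time gave 0 called genes throughout, for the day difference and for the interaction, between 113 and 129 genes with an interval within 2-fold, and medians of the 153 genes from -0.08 to 0.02. The median of -0.03 became 0.10 under TMM scaling, 0.073 with the 5 housekeeping genes of at least 100 counts and 0.094 with the lymphocyte-gene median subtracted. Unadjusted counts moved more, from 6 (1 higher at day 7): 14 under TMM (12 higher), 19 without a filter (lowest adjusted p = 0.0824, edgeR), 22 without replicate 3 of day 7, 21 with both conflicting samples placed at day 7 and 16 with both left out. With the replicate block in a fit of the 2 day groups, 0 genes were called and 149 of the 153 had intervals within 2-fold; with the block over all groups, 0 were called and 133 had such intervals. Leaving out both samples numbered 3, chosen after seeing the data, gave 0 called genes, 13 at an unadjusted p under 0.05 and 126 intervals within 2-fold.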
